A study of Homo sapiens with 6 samples.

Results

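The genes described here are 10 secreted proteins around transforming growth factor beta (TGF-beta) and activin signalling. They are the TGF-beta ligands TGFB1, TGFB2 and TGFB3, the activin beta subunits INHBA, INHBB and INHBE, the activin-binding proteins FST (follistatin) and FSTL3, the stress cytokine GDF15, and TGFBI, a matrix protein named for its induction by TGF-beta. They were taken by symbol from the count table, and all 10 had a row among its 20263. All 10 also passed the filter on low counts, which left 13444 tested genes. RNA was sequenced from HCCLM3, a highly metastatic line from a human liver carcinoma, after 24 h with CC-885 (3 libraries) or with its solvent DMSO (3 libraries). CC-885 is a small molecule that binds cereblon, the substrate receptor of a ubiquitin ligase, and so directs proteins such as the translation termination factor GSPT1 to degradation. The sources used here give no dose. Both groups are cultures of 1 cell line, and the study's title concerns the Golgi protein GOLM1.

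The libraries held between 30432509 and 39809131 counts. Within a group the lowest correlation of log2 CPM was 0.977, and between groups the highest was 0.946. Whether libraries of a group are separate cultures is not stated in the labels, so the p-values rest on a spread that may be technical. Of 10 hepatocyte lineage markers, ALB, AFP, APOB and TTR had 0 counts in every library, and APOA1 and SERPINA1 had means of at most 0.0749 CPM. The epithelial keratin KRT8 of that list stood at 890 and 1251 CPM under CC-885 and under DMSO. The labelled liver origin was therefore not visible in the secretory genes that usually define it. Summed markers of other cell types ran from 152 to 186 CPM under CC-885 and from 158 to 189 CPM under DMSO for 6 fibroblast genes, where LUM had 0 counts in every library. These similar sums hold opposite changes, since of 4 tested fibroblast genes COL1A1 was higher (155 and 104 CPM, log2 fold change 0.58) and PDGFRB (14.1 and 70.9 CPM, -2.33) and DCN (0.126 and 1.21 CPM, -3.23) were lower. The sums ran from 3.11 to 4.93 and from 0.871 to 1.35 CPM for 4 endothelial genes, where KDR was at 0, and both tested genes of that list, CDH5 (log2 fold change 3.63) and VWF (1.01), were higher. They ran from 2.94 to 4.33 and from 3.89 to 4.57 CPM for 5 immune genes, where PTPRC, CD3E and LYZ were at 0. The part of these markers in the results below was not tested. In RNA from whole cultures, fewer cells of a type and less RNA per cell cannot be told apart.

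TGF-beta ligands are secreted in a latent form, bound to their own propeptide, and signal after release through the receptors TGFBR2 and TGFBR1 to the transcription factors SMAD2 and SMAD3. Activins are dimers of beta subunits. Activin A reaches the same SMADs through the receptors ACVR2A, ACVR2B and ACVR1B. Follistatin and FSTL3 bind activins and keep them from their receptors. In liver, activin A restrains hepatocyte growth, the INHBE product activin E is made mainly by hepatocytes, and GDF15 is a hormone of cell stress. Only mRNA was counted here, neither secreted nor active protein.

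The group of 10 genes was changed unevenly by CC-885. With CC-885, 6 genes were higher (INHBA, TGFB2, INHBE, FSTL3, FST and GDF15), TGFB3 was lower, and TGFB1, INHBB and TGFBI were not called. Calls were made at an adjusted p below 0.05 in the edgeR quasi-likelihood test, adjusted over all tested genes. Of all tested genes 25.8% were called higher and 26.8% lower, so a call alone is common in these data. The median log2 fold change was 0.95 over the 10 genes and -0.04 over all tested genes. The size of the change differed more than the call: INHBA and TGFB2 lay at the 99.9 and 99.6 percentiles of the log2 fold changes of all tested genes, INHBE at 98.4, and FSTL3, FST and GDF15 between 88.7 and 93.1.

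**Figure D1:**
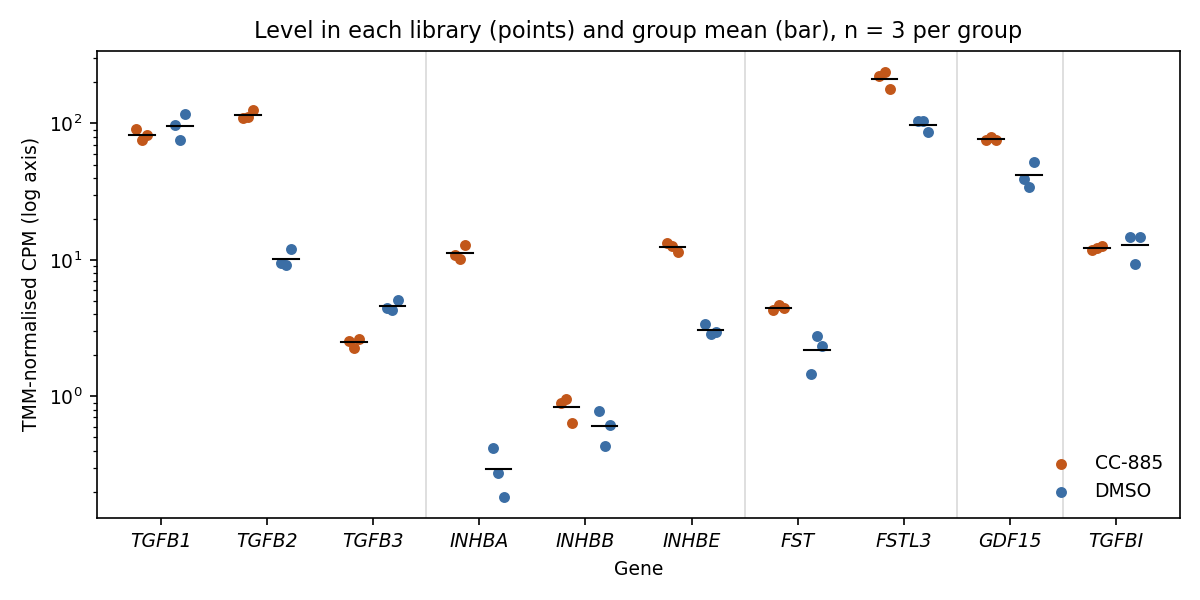
Level of the 10 genes in each library, in CPM (counts scaled to library size, TMM-normalised, log axis), under CC-885 left of DMSO for each gene; bars are means of 3 libraries. The groups are far apart for INHBA (10.2 to 12.96 against 0.184 to 0.418 CPM) and TGFB2 (110.4 to 125.9 against 9.15 to 11.9 CPM), and they overlap for TGFB1, INHBB and TGFBI.

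Among the TGF-beta isoforms, TGFB2 rose, TGFB3 fell and TGFB1 was not called. TGFB2 (ENSG00000092969, chromosome 1), the isoform known for its role in heart and eye development, stood at 110.4, 111 and 125.9 CPM in CC-885 libraries and at 9.47, 9.15 and 11.9 CPM in DMSO libraries. Each CC-885 library lay far above each DMSO library. The mean was 116 ± 8.80 CPM under CC-885 and 10.2 ± 1.52 CPM under DMSO (SD, n = 3 each), a rise of 11.4-fold (log2 fold change 3.51, SE 0.15, adjusted p = 5.83e-08). TGFB3 (ENSG00000119699, chromosome 14), an isoform of palate and lung development, had 2.56, 2.26 and 2.64 CPM in CC-885 libraries and 4.44, 4.30 and 5.12 CPM in DMSO libraries. Here each CC-885 library lay below each DMSO library, and the means were 2.49 ± 0.202 CPM under CC-885 and 4.62 ± 0.441 CPM under DMSO. Its log2 fold change was -0.89 (SE 0.19, adjusted p = 0.00231). The groups did not overlap in 7 of the 10 genes, the same 7 that were called, while they did not overlap in 61.1% of all tested genes.

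TGFB1 (ENSG00000105329, chromosome 19), the isoform most studied in liver fibrosis and carcinoma, had 90.4, 75.3 and 82.8 CPM under CC-885 and 97.0, 75.8 and 116.6 CPM under DMSO. The groups overlapped, since DMSO replicate 2 lay at the low end of the CC-885 range. The log2 fold change was -0.22 (SE 0.16, approximate 95% interval -0.57 to 0.13, adjusted p = 0.269). Without DMSO replicate 2 it was -0.35 and passed the test (adjusted p = 0.0342). The exons of TGFB1 share 215 bases with HNRNPUL1 on the opposite strand in GENCODE 29, a gene at 497 ± 32.7 and 515 ± 156 CPM. The count is not stated to use strand, so reads from that stretch cannot be told apart. TGFB2 shares exon sequence with TGFB2-OT1 on its own strand (1371 bases) and TGFB3 with TGFB3-AS1 on the opposite strand (163 bases). The other 7 genes share no exon sequence with another annotated gene.

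The start regions of TGFB2, TGFB3 and INHBA are shown because INHBA and TGFB2 rose most and TGFB3 is the gene that fell. Each line gives the 250 bases before a RefSeq start (GRCh38.p14), read 5′ to 3′ on the gene's strand. The TGFB2 window is chr1:218345086-218345335 (plus strand), the second of 2 TGFB3 windows is chr14:75981996-75982245 (minus strand), and the INHBA window is chr7:41703091-41703340 (minus strand). Capitals mark matches to the motifs named after the lines.
TGFB2: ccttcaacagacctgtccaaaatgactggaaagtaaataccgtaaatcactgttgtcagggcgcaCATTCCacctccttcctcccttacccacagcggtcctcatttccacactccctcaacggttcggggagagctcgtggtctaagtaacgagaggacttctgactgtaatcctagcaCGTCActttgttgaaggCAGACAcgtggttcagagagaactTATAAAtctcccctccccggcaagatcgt
TGFB3: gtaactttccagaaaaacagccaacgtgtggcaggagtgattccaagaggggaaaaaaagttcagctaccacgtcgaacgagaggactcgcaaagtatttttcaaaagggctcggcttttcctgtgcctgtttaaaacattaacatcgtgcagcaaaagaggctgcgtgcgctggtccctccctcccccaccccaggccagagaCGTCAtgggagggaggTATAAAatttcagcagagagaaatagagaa
INHBA: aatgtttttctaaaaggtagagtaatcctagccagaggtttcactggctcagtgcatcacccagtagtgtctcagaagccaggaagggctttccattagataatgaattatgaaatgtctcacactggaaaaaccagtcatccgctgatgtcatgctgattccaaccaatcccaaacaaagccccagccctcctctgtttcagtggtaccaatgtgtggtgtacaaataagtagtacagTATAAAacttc
In the TGFB2 window the capitals are, in order, a TEAD site, a CRE core, a SMAD CAGA box and a TATA box. In TGFB3 they are a CRE core and a TATA box, and in INHBA a TATA box. The TATA box lies 29 to 24 bases before the start of TGFB2, 30 to 25 bases before that of TGFB3 and 11 to 6 bases before that of INHBA.

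The upstream windows of TGFB2, which rose, and TGFB3, which fell, thus share a TATA box and a CRE core at 70 to 66 and 46 to 42 bases before the start. Windows were found for 9 of the 10 genes, all but INHBE, and the first TGFB3 window held none of the motifs. The motifs were searched as TGACTCA (AP-1), TGACGTCA (CRE), TGACG (CRE core), TGATGNAA (the core of an ATF4 composite site), GGAATG (TEAD) and CAGACA (SMAD CAGA box) on both strands, and as TATAAA, for the TATA box, on the gene's strand. A CRE holds a CRE core. TATA boxes were in the windows of 4 of these 9 genes (TGFB2, TGFB3, INHBA and GDF15) and in 6.8% of 35116 RefSeq windows. CRE cores were in 2 of 9 and in 21.2% of windows, TEAD sites in 2 of 9 (TGFB2 and GDF15) and in 11.9%, and the CAGA box in 1 of 9 and in 13.6%. The AP-1, CRE and ATF4 motifs were in none of the 9 genes' windows and in 4.2%, 1.65% and 3.14% of all windows. A match is a description of letters, and which starts these cells used was not measured.

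The make-up of the TGF-beta isoform mRNAs differed between the groups. Per exon length, TGFB2 made up 43.0, 47.6 and 48.3% of the 3 isoforms' transcripts in CC-885 libraries and 5.63, 6.81 and 5.89% in DMSO libraries. TGFB1 made up 52.6 ± 2.91% under CC-885 and 91.0 ± 0.991% under DMSO, and TGFB3 1.04 ± 0.024% and 2.92 ± 0.382% (SD, n = 3 each). Per exon length, TGFB2 and TGFB1 transcripts were thus at similar levels under CC-885, while TGFB1 held most of the total under DMSO. In CPM, which are not divided by length, TGFB2 lay above TGFB1 in each CC-885 library (110.4, 111 and 125.9 against 90.4, 75.3 and 82.8). The summed level of the isoforms was 48.6 ± 2.88 CPM per kb under CC-885 and 32.7 ± 6.65 CPM per kb under DMSO, and the CC-885 libraries (45.3 to 50.6) lay above the DMSO libraries (26.1 to 39.4). The difference in the TGFB2 share was 40.2 percentage points (two-sided exact permutation test, p = 0.1). For 3 libraries against 3 this exact test cannot go below p = 0.1, and that value was reached by all 9 shares and ratios computed here, also after Benjamini-Hochberg adjustment.

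**Figure D2:**
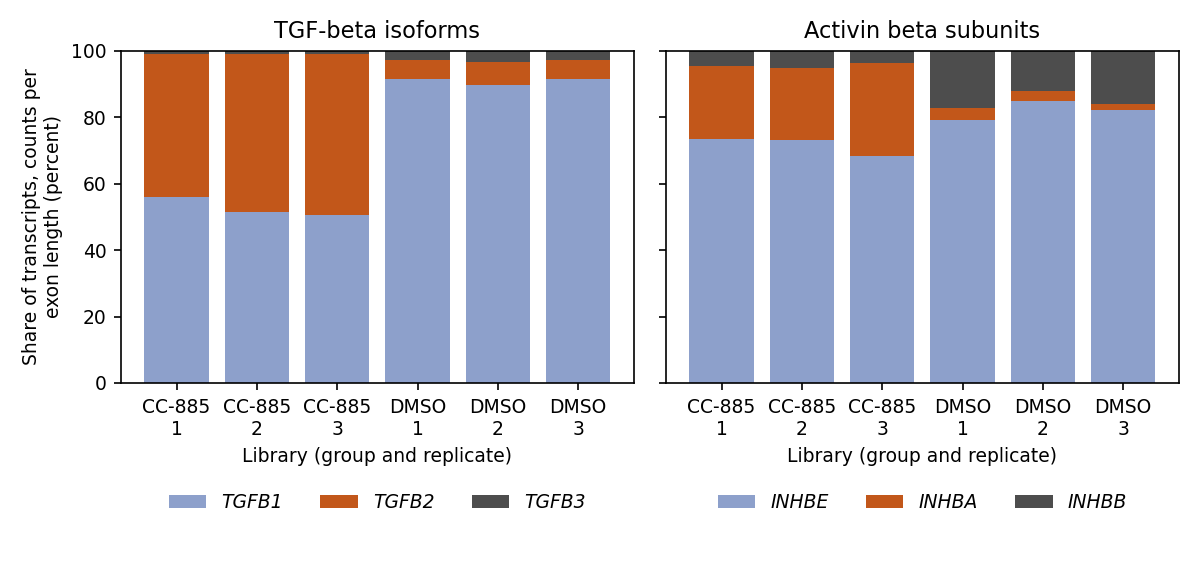
Shares of the 3 TGF-beta isoforms (left) and of 3 activin beta subunits (right) in each library, in percent of their summed counts per exon length; CC-885 libraries stand left of DMSO libraries. The TGFB2 share is 43.0 to 48.3% in CC-885 libraries and 5.63 to 6.81% in DMSO libraries, and the INHBA share 21.6 to 27.99% and 1.85 to 3.56%.

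Of the activin beta subunits, INHBA and INHBE rose and INHBB was not called. INHBA (ENSG00000122641, chromosome 7) encodes beta A, the subunit of activin A. It had 10.8, 10.2 and 12.96 CPM in CC-885 libraries, from counts of 324, 393 and 446. In DMSO libraries it had 0.418, 0.272 and 0.184 CPM, from counts of 16, 10 and 6. The gene was thus close to the detection limit in DMSO cells and clearly detected under CC-885. The fitted rise was 37.9-fold (log2 fold change 5.24, SE 0.27, adjusted p = 1.9e-07), and with the small DMSO counts its size moved between 5.02 and 5.60 on the log2 scale over 14 alternative settings.

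INHBE (ENSG00000139269, chromosome 12), the subunit of activin E, had 13.2, 12.6 and 11.5 CPM under CC-885 and 3.37, 2.86 and 2.98 CPM under DMSO. Every CC-885 library was above every DMSO library, and the rise was 4.05-fold (log2 fold change 2.02, SE 0.16, adjusted p = 3.55e-06). INHBB (ENSG00000163083, chromosome 2), the subunit of activin B, was low in both groups, at 0.899, 0.962 and 0.639 CPM under CC-885 and 0.783, 0.436 and 0.614 CPM under DMSO. Its groups overlapped, and the log2 fold change of 0.44 (SE 0.35, approximate 95% interval -0.33 to 1.22, adjusted p = 0.31) neither passed the test nor bounded the change closely. The inhibin alpha subunit INHA, which pairs with beta subunits to form inhibins, the opponents of activins, was lower, at 0.612 ± 0.175 CPM under CC-885 and 1.56 ± 0.0795 CPM under DMSO (log2 fold change -1.34, adjusted p = 0.0034).

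INHBE was the most abundant of the 3 beta subunits per exon length in every library. In CPM, which are not divided by length, INHBA lay above INHBE in CC-885 replicate 3 (12.96 against 11.5). Per exon length, INHBE made up 71.7 ± 2.84% of their transcripts under CC-885 and 82.1 ± 2.89% under DMSO, a difference of -10.4 percentage points that came to -26.96 with counts not divided by length. INHBA took 21.8, 21.6 and 27.99% in CC-885 libraries and 3.56, 2.94 and 1.85% in DMSO libraries, a difference of 21 percentage points that came to 38.8 with counts not divided by length. INHBB took 4.52 ± 0.859% and 15.1 ± 2.66% (exact permutation test, p = 0.1 for each). The share of INHBB was smaller under CC-885 while its level was not called different. The summed level of the 3 subunits was 5.75 ± 0.199 CPM per kb under CC-885 and 1.24 ± 0.152 CPM per kb under DMSO. A further beta subunit gene, INHBC, is not in these shares and sums. It was low, at 0.146 CPM per kb under CC-885 and 0.185 under DMSO, and was not called (adjusted p = 0.592). Under DMSO that is near INHBB (0.191). Shares with INHBC were not computed, but its weight would fall mainly on the DMSO total. The smaller INHBE share per exon length thus rests largely on leaving INHBC out.

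The mRNAs of both activin-binding proteins rose. FSTL3 (ENSG00000070404, chromosome 19) had 222, 238 and 179.6 CPM in CC-885 libraries and 103.8, 103.4 and 86.1 CPM in DMSO libraries. Its lowest CC-885 library was still well above the DMSO libraries, and the rise was 2.18-fold (log2 fold change 1.13, SE 0.15, adjusted p = 0.000101). FST (ENSG00000134363, chromosome 5) had 4.26, 4.65 and 4.47 CPM under CC-885 and 1.46, 2.78 and 2.33 CPM under DMSO. The CC-885 libraries were close together and the DMSO libraries were more spread, with DMSO replicate 1 the lowest. The rise of FST was 2.04-fold (log2 fold change 1.03, SE 0.24, adjusted p = 0.0041).

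Set within each library, the log2 ratio of INHBA to the 2 binders together was -5.83, -6.01 and -5.27 under CC-885 and -9.37, -9.97 and -10.23 under DMSO, per exon length. In geometric means this is 52 binder transcripts for each INHBA transcript under CC-885 and 928 under DMSO. The ratio was 17.9-fold higher under CC-885 (exact permutation test, p = 0.1), and the binders remained in excess in every library. Nearly all of that excess was FSTL3. For FST alone, there were 1.11 transcripts per exon length for each INHBA transcript under CC-885 and 20.5 under DMSO. In CC-885 replicate 3 INHBA was slightly above FST (log2 ratio 0.048). The near parity depends on the division by length. In counts not divided by length INHBA was above FST in each CC-885 library (324, 393 and 446 against 128, 179 and 154).

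GDF15 (ENSG00000130513, chromosome 19), a distant member of the family that signals through GFRAL and RET in the hindbrain and lowers appetite, had 75.3, 79.2 and 76.3 CPM under CC-885 and 38.9, 34.5 and 51.9 CPM under DMSO. The CC-885 libraries agreed closely and lay above all DMSO libraries, of which replicate 3 was the highest. The rise was 1.84-fold (log2 fold change 0.88, SE 0.15, adjusted p = 0.000671). GFRAL had 0 counts in every library. RET had 0 counts under CC-885 and a mean of 0.0174 CPM under DMSO. As background, the stress factors ATF4 and CHOP are known to induce both GDF15 and INHBE. In a list of 11 genes of that stress response, which holds ATF4 and DDIT3 (CHOP) themselves, 10 were higher and 0 lower (median log2 fold change 1.14). Among all tested genes 25.8% were higher and 26.8% lower. The part of these factors in the changes of GDF15 and INHBE was not tested. ATF3 stood at 393 ± 53.4 CPM under CC-885 and 15.9 ± 2.83 CPM under DMSO (log2 fold change 4.62). ATF4 stood at 777 ± 65.1 and 296 ± 9.96 CPM (1.39). The log2 fold change of GDF15 lay below the median of that list and that of INHBE above it.

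TGFBI (ENSG00000120708, chromosome 5), a secreted adapter between collagens and integrins, was not called. It had 11.8, 12.2 and 12.7 CPM under CC-885 and 14.6, 9.37 and 14.6 CPM under DMSO. The CC-885 libraries fell inside the DMSO range, which DMSO replicate 2 widened downward. The log2 fold change was -0.07 (SE 0.18, approximate 95% interval -0.48 to 0.33, adjusted p = 0.753), and its sign turned without DMSO replicate 1 (0.035) or DMSO replicate 3 (0.026).

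**Figure D3:**
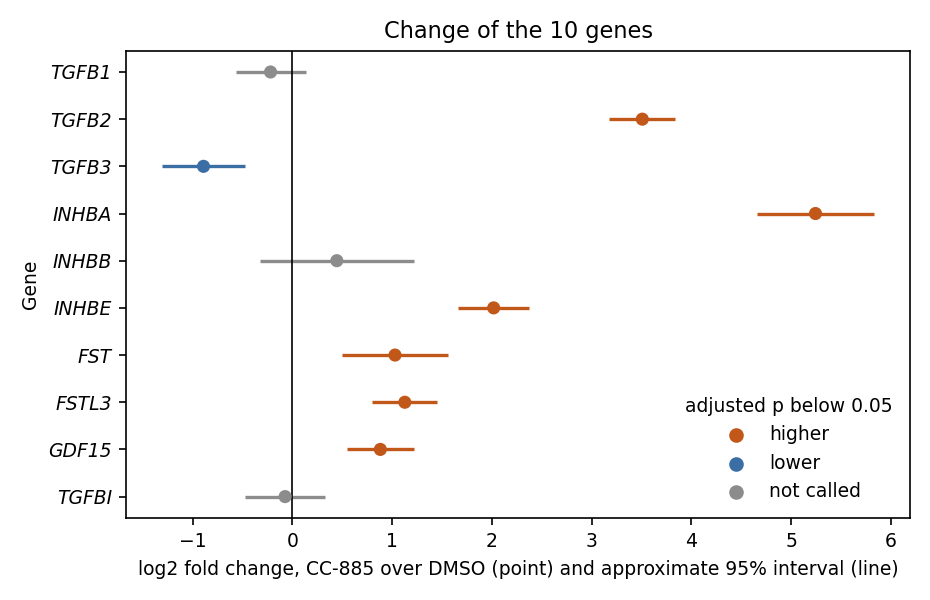
Log2 fold change of each gene, CC-885 over DMSO (points), with approximate 95% intervals (lines); colours give the call at an adjusted p below 0.05. INHBA (5.24) and TGFB2 (3.51) stand apart from the other called genes, which lie between -0.89 (TGFB3) and 2.02 (INHBE), and the intervals of TGFB1, INHBB and TGFBI cross 0.

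Ordered by mean level per exon length, the CC-885 libraries held FSTL3 (69.6 CPM per kb), GDF15 (36.9), TGFB1 (25.6), TGFB2 (22.5), INHBE (4.12), TGFBI (1.57), FST (1.503), INHBA (1.36), TGFB3 (0.507) and INHBB (0.26). Neighbours whose library ranges overlapped were TGFB1 with TGFB2, TGFBI with FST, and FST with INHBA. The order in DMSO libraries was FSTL3 (31.9 CPM per kb), TGFB1 (29.8), GDF15 (20.01), TGFB2 (1.98), TGFBI (1.65), INHBE (1.02), TGFB3 (0.94), FST (0.738), INHBB (0.191) and INHBA (0.0351). There the ranges overlapped between FSTL3 and TGFB1, TGFB1 and GDF15, TGFB2 and TGFBI, INHBE and TGFB3, and TGFB3 and FST. FSTL3 had the highest mean in both groups. INHBA had the lowest under DMSO and was above TGFB3 and INHBB under CC-885.

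The genes with the most similar profiles were sought for the 3 called genes with the largest change, by the distance of log2(CPM + 0.5) over the 6 libraries, each gene centred on its DMSO mean, among 10802 genes that averaged at least 5 CPM. Nearest to INHBA were the transcription factor gene CREB5 (distance 0.329), the endothelin gene EDN1 (0.49) and ZNF699 (0.55). Nearest to TGFB2 were the nuclear receptor gene NR4A3 (0.4), PPP1R15A (0.406), which encodes a phosphatase subunit of the stress response, and THBS1 (0.486). Nearest to INHBE were NFKBIZ (0.218), an atypical IkB protein, WHAMM (0.273), an actin nucleation factor, and SOD2 (0.286), the mitochondrial superoxide dismutase. EDN1 reached 265 ± 17.1 CPM under CC-885 against 17.1 ± 2.44 CPM under DMSO, and NFKBIZ 35.7 ± 2.58 against 9.14 ± 0.832 CPM. These profiles are largely the difference between the groups, and the added 0.5 CPM shortens that of INHBA, which was below it under DMSO.

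The mRNAs of the receptors TGFBR1 and ACVR1B rose, and most other receptor mRNAs were not called. Of 17 receptors and co-receptors 12 were tested, with 4 higher and 1 lower (median log2 fold change 0.13). Over all tested genes 25.8% were higher and 26.8% lower, so these counts do not set receptors apart as a list. The type I receptors TGFBR1 (126 ± 6.49 CPM under CC-885, 70.0 ± 16.2 CPM under DMSO, log2 fold change 0.85, adjusted p = 0.0012) and ACVR1B (48.9 ± 5.11 and 21.7 ± 8.23 CPM, 1.17, adjusted p = 0.0099) were higher. The low BMP receptor gene BMPR1B was higher too (2.57 and 1.32 CPM, log2 fold change 0.96). TGFBR2 (0.07), the co-receptor TGFBR3 (0.04) and ACVR2A (0.36, adjusted p = 0.0686) were not called. The activin type II receptor ACVR2B passed narrowly (0.37, adjusted p = 0.0318). That call was lost without any one library other than DMSO replicate 2 (adjusted p between 0.0511 and 0.0969), with scaling to library size only (0.0674) and with the CPM filter of 5 (0.0678). The co-receptor ENG was lower (-0.66, adjusted p = 0.0173), but not past the threshold when CC-885 replicate 2 (0.057) or replicate 3 (0.0579) was left out. Without CC-885 replicate 3, 2 receptors were higher and 0 lower, and without CC-885 replicate 2, 0 were lower. ENG and ACVR2A share exon sequence with genes on the opposite strand.

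Genes of latency, processing and activation moved in both directions, with 4 higher and 4 lower of 12 tested among 17 (median 0.15). The shares over all tested genes were 25.8% higher and 26.8% lower. THBS1, thrombospondin 1, a protein that can release TGF-beta from its latent complex, was at 498 ± 28.02 CPM under CC-885 and 41.9 ± 8.41 CPM under DMSO (log2 fold change 3.57, adjusted p = 1.64e-07). The protease gene MMP9 was at 4.71 ± 0.239 and 1.15 ± 0.24 CPM (2.02, adjusted p = 3.15e-05). The latent TGF-beta binding proteins LTBP3 (51.7 ± 5.41 and 98.5 ± 12 CPM, -0.93, adjusted p = 0.000236) and LTBP1 (64.4 ± 1.39 and 99.1 ± 22.1 CPM, -0.62, adjusted p = 0.00729) were lower. Without CC-885 replicate 2, CC-885 replicate 3, DMSO replicate 1 or DMSO replicate 3, 2 genes of this list were lower. THBS1, MMP9 and LTBP1 each share exon sequence with a gene on the opposite strand.

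Of 26 other ligands of the family 13 were tested, and 2 were higher and 6 lower (median -0.37). Beside this, 25.8% of all tested genes were higher and 26.8% lower. Several of these had few counts, and with counts halved 3 were lower. BMP2, a bone morphogenetic protein, was at 106.1 ± 9.36 CPM under CC-885 and 31.2 ± 2.79 CPM under DMSO (log2 fold change 1.77). BMP6, the liver signal for hepcidin, was at 114.1 ± 9.14 and 79.7 ± 9.79 CPM (0.52). AMH, the hormone of Müllerian duct regression, fell to 4.50 ± 1.07 CPM under CC-885, against 10.8 ± 1.48 CPM under DMSO (-1.27). Among 7 tested of 13 other secreted or decoy antagonists, 2 were higher and 4 lower (median -1.33). NOG, noggin, which blocks BMPs, was at 2.23 ± 0.698 and 10.3 ± 0.721 CPM (-2.21), and WFIKKN1, which binds myostatin and GDF11, at 1.99 ± 0.466 and 13.8 ± 0.946 CPM (-2.80). FSTL1 (0.55) and the decoy receptor gene BAMBI (0.46) were higher, but BAMBI missed the threshold (0.0519) when CC-885 replicate 1 was left out, which left 1 higher. FST and FSTL3 thus moved in the other direction from NOG and WFIKKN1 and in the same direction as FSTL1 and BAMBI. WFIKKN1 shares 34 exon bases with RAB40C on its strand, and FSTL1 and AMH overlap annotated genes too.

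Of 17 SMADs and regulators, all tested, 9 were higher and 0 lower (median 0.51). Among all tested genes 25.8% were higher and 26.8% lower. SMAD2 (log2 fold change 0.39, adjusted p = 0.0653) and SMAD3 (-0.07, adjusted p = 0.711) were among the genes of this list that were not called. SMURF1, a ubiquitin ligase for SMADs and receptors, was at 178 ± 6.93 CPM under CC-885 and 65.7 ± 13.9 CPM under DMSO (log2 fold change 1.44), and SKIL, a corepressor of SMADs, at 90.2 ± 10.4 and 33.8 ± 3.91 CPM (1.41). Of 23 transcripts listed as raised by TGF-beta and activin, 19 were tested, 11 were higher and 0 lower (median 0.54). CCN2, connective tissue growth factor, was at 1109 ± 68.1 and 75.6 ± 13.02 CPM (3.88), and the AP-1 gene JUNB at 464 ± 38.2 and 97.7 ± 13.7 CPM (2.25). Without DMSO replicate 2, 1 transcript of this list was lower, and likewise with scaling to library size only, when counts were halved and when a CPM of 5 was required. SMAD3, SMURF1, CCN2 and JUNB share exon sequence with genes on the opposite strand. Many of these transcripts also answer to other signals, so the counts of the lists are no measure of TGF-beta activity.

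**Figure D4:**
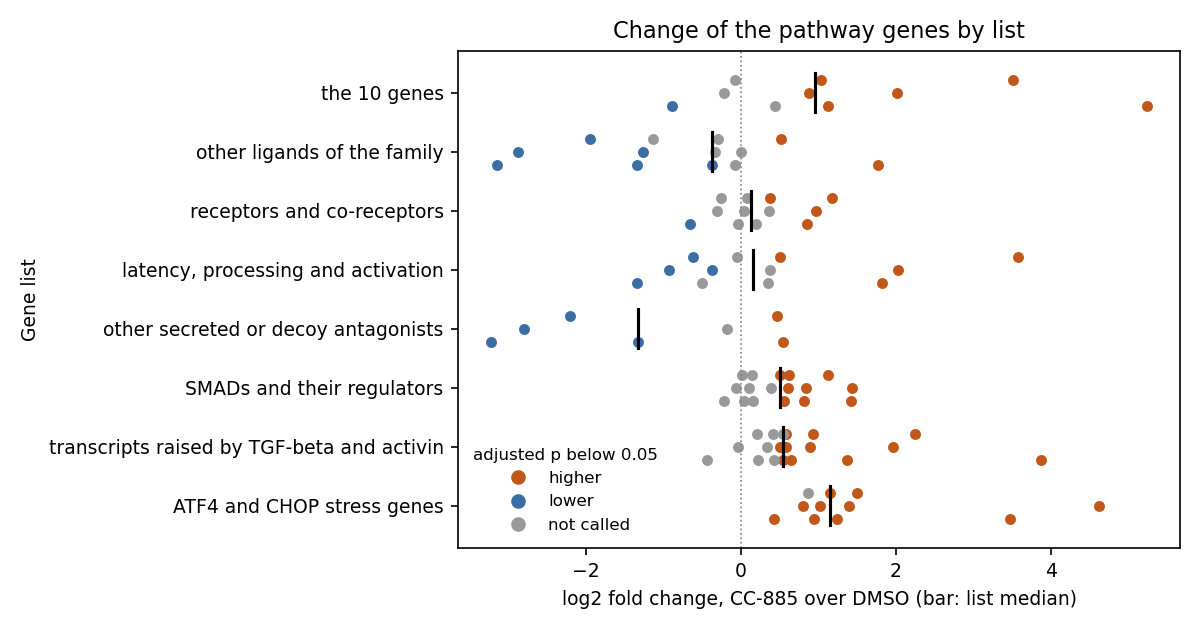
Log2 fold change, CC-885 over DMSO, of every tested gene in each list (points, coloured by the call at an adjusted p below 0.05), with the list's median as a bar. The medians run from -1.33 for the other antagonists to 1.14 for the ATF4 and CHOP stress genes, with 0.95 for the 10 genes and -0.04 over all tested genes.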

How the data were processed

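Per the file header and its values, the deposited table holds raw counts per Ensembl gene, 1 column per library. Aligner, counting program and annotation: not given in the sources used here. Mouse builds (GRCm38, mm10) stand in the submitters' processing notes, but all 20263 identifiers are human. Symbols came from a gene name table (20148) or GENCODE 29 (76). Exon lengths are merged GENCODE 29 exons, and upstream sequences and their coordinates are from RefSeq (GRCh38.p14).

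Counts were fitted with edgeR 4.0.16 under R 4.3.3 (filterByExpr with a minimum count of 10, TMM, robust quasi-likelihood F test, no covariate, Benjamini-Hochberg over 13444 genes). The procedure was run on simulated data in which only a small part of the genes was changed. In the real data 52.6% of tested genes were called, so that run does not check TMM scaling under so wide a change. Standard errors were approximated by dividing the log2 fold change by the root of its F statistic. CPM are TMM-normalised. Ratios used counts + 0.5. A count of 0 allows up to 0.0754 to 0.0986 CPM (3 counts of the total), for counting error only. Of counts from 1 to 20, 66.8% were even, so fragments may have been counted more than once, and halved counts were tried after this was seen. The other alternatives were DESeq2 1.42.0 (size factors, Wald test), limma-voom 3.58.1, library size only, other filters, a replicate block and each library left out.

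The members and lists were chosen with earlier results of these data known. The naming rule took all 10 genes, up to 2 higher and 2 lower called genes of each list by p, the receptors of TGF-beta and activins, and the 3 nearest profiles of the 3 most changed genes. All 7 lists are described by counts and medians, with no test over a list.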

Additional observations from a re-analysis of the deposited data

How the results depend on the processing

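Of the 10 genes, 6 were higher under every alternative except the CPM filter of 5, which left FST, TGFB3 and INHBB untested and gave 5 higher and 0 lower. The number of lower genes ranged from 1 to 2 when single libraries were left out, the second being TGFB1 without DMSO replicate 2. TGFB2, INHBA, INHBE, GDF15 and FSTL3 were called in all 14 alternatives, and TGFB3 and FST in all 13 that tested them. The log2 fold change over these ranged from 3.44 to 3.63 for TGFB2, from 1.95 to 2.09 for INHBE, from 0.77 to 1.06 for GDF15, from 1.04 to 1.24 for FSTL3, from 0.81 to 1.25 for FST and from -0.95 to -0.81 for TGFB3. With single libraries left out, TGFBI ranged from -0.25 to 0.035, turning positive without DMSO replicate 1 or 3, and TGFBR3 from -0.068 to 0.19, turning negative without CC-885 replicate 1. TGFBR3 was also negative with library size only (-0.019) and with the CPM filter of 5 (-0.026). With counts not divided by length, the difference in share was 48.3 percentage points for TGFB2 and 38.8 for INHBA; leaving out a library gave 39.2 to 41.9 and 18.9 to 22.1. The cause was not tested. The CPM filter of 5 also left 2 receptors higher and 2 lower, 2 latency genes higher, 2 other ligands lower and 2 other antagonists lower. Over all genes, between 2893 and 3650 were higher and between 2908 and 3956 lower. Library size only shifted the median of all log2 fold changes by -0.06. The labels name no paired cultures, so the main fit had no block. With the replicate number as a block 3597 genes were higher and 3676 lower, and 6 and 1 of the 10. The correlation of deviations was 0.0958, 0.0311 and 0.0722 for same-numbered libraries and ran from -0.132 to 0.0373 for unlike numbers. Not every library correlated best with its own number. Depth limits INHBB and the DMSO level of INHBA, which rest on 6 to 37 counts per library.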
